A study of Homo sapiens with 20 samples.

Results

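Of the 31428 regions that carried H3K4me3 in at least 1 library of this series, 357 (1.14%) were marked in every library of WM164 cells that overexpress a transgene and in no library of the other cells. They were chosen by where the authors' peaks lay, by merging the peaks of 10 H3K4me3 lists, on the 22 autosomes and X, that overlapped or lay within 1000 bp, and by keeping regions with a peak in all 4 lists of transgene cells and in none of the other 6. WM164 is an established human melanoma cell line with a mutant BRAF kinase, and each library is a chromatin immunoprecipitation with an antibody against H3K4me3. The groups, of 2 libraries each, were cells overexpressing NRAS Q61K, cells overexpressing GFP, and colony, resistant and parental cells. Colonies had at least 45 days in 50 nM dabrafenib (a BRAF inhibitor), and resistant cells more than 90 days at that dose. Parental cells were given DMSO for 3 days. NRAS Q61K and GFP cells thus share the BRAF mutant background and an introduced gene, and neither has a drug treatment in its labels. The labels used here state neither the promoter and vector of the transgenes, nor whether those cells are clonal, nor their fixation, while paraformaldehyde is stated for the colony, resistant and parental cells. Expression of the transgenes could not be checked, since the lists hold peaks and no expression.

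H3K4me3, trimethylation of lysine 4 on histone H3, is laid down by the SET1 and MLL methyltransferase complexes and is read by factors that promote transcription initiation. It forms broad, strong peaks at the starts of active genes, and short, weak peaks at some enhancers, repeats and poised promoters. NRAS is a small GTPase upstream of BRAF in the ERK pathway, and the Q61K change keeps it in its active state. GFP has no known role in that pathway and serves as the control for carrying a transgene. Positions are given in GRCh37, and regions are named by their chromosome band because genes of that build were not used here.

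The peak lists differed between groups before any region was singled out. They held 37649 to 40648 peaks in NRAS Q61K, 41806 to 45376 in GFP, 21408 to 21573 in colony, 19111 to 19401 in resistant and 29258 to 30065 in parental cells. The shortest called peak, normally set in MACS2 by the estimated fragment length, was 151 to 153 bp in NRAS Q61K, 142 to 153 bp in GFP, 282 to 284 bp in colony, 255 to 256 bp in resistant and 180 to 202 bp in parental lists. Peak length, list length and the transgene therefore move together, and their parts in the set of 357 regions cannot be told apart.

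The regions marked in transgene cells alone were short. The merged regions had a median width of 566 bp (range 174 to 6635 bp), against 1140 bp over all 31428 regions and 4124 bp over the 12087 regions marked in all 10 lists. Per library, the median length under peaks was 326 bp and 259 bp in the NRAS Q61K libraries and 251 bp and 275 bp in the GFP libraries. The order of the groups in these medians is not clear, since NRAS Q61K 2 lay between the GFP libraries. A mean covered length of 500 bp or more over the 4 libraries was reached by 42 regions, and one of 1000 bp or more by 5. In 210 regions (58.8%) each of the 4 lists had a single peak.

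**Figure D1:**
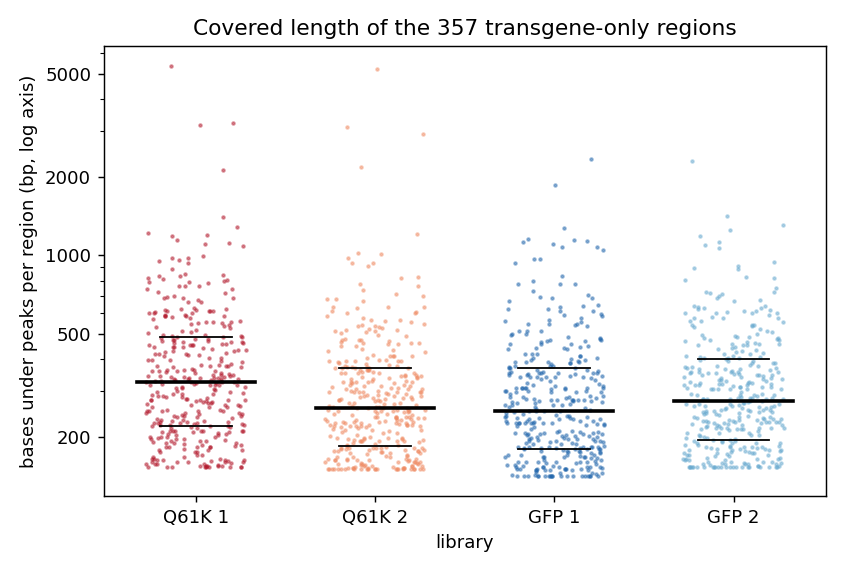
Bases under peaks (vertical, bp, log axis) at each of the 357 regions in the 2 NRAS Q61K and the 2 GFP libraries; every point is a region, the thick line the median and the thin lines the quartiles. The medians lie between 251 and 326 bp, and each NRAS Q61K library has 4 points above 2000 bp, against 1 in each GFP library.

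The peaks were also weak within their own lists. The strongest peak of each region had a median −log10 q of 6.39 and 5.63 in the NRAS Q61K lists and of 5.34 and 5.70 in the GFP lists, values that took part in choosing the regions. Ranked within its list, with 100% for the strongest peak, the median region stood at 42.3% and 31.5% in NRAS Q61K and at 36.6% and 40.2% in GFP. No region ranked above 70.8% in any list. In all 4 lists 167 regions (46.8%) stayed under the list's median, and 9 stood above it in all 4. The read depth behind these peaks can be recovered from the deposited fold and p-value. The median summit held 22 and 19 overlapping reads over a local background of 4.24 and 3.76 in NRAS Q61K, and 18 and 17 reads over 3.46 and 2.97 in GFP. The weakest peaks that were called in the lists without these regions had summits of 13 or 14 reads in colony, 14 or 15 in resistant and 11 or 13 in parental libraries. These are summit reads of libraries of unequal depth, so a region without a peak in those lists was not shown to lack the mark.

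The rule's edges were populated on both sides. Without any peak in the other 6 lists, 648 regions had a peak in exactly 3 transgene lists and 7117 in exactly 1. With a peak in all 4, 635 further regions failed the rule by a peak in only 1 of the other lists, of which 414 were in parental 1, 178 in parental 2, 21 and 9 in the colony and 9 and 4 in the resistant libraries. The members had a mean −log10 q over the 4 lists with a median of 5.92 (range 3.10 to 21.4). The 635 regions just outside had a median of 6.69, and the 648 regions with 3 of 4 lists had 5.09 over those 3. The nearest peak of the other 6 lists lay 1004 bp away at the closest and 30243 bp away in the median. The count of regions depended on single libraries: 771 regions met the rule without parental 1, 573 without GFP 1 and 545 without NRAS Q61K 2.

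Within a region the 4 libraries did not always mark the same bases. In 279 of the 357 regions (78.2%) at least 1 base lay under a peak in all 4 lists, and in 78 (21.8%) none did. Whether the peaks of those 78 overlapped in part or were joined only by the 1000 bp merging distance was not counted. The summits of the strongest peaks fell within 200 bp of each other in 203 regions (56.9%). Covered length correlated with Pearson's r = 0.68 between the NRAS Q61K libraries, r = 0.59 between the GFP libraries and r = 0.45 to 0.51 between groups. These are correlations over 357 regions, given without a test, on log2(bases + 200). The points of all 4 libraries share their region boundaries.

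The region with the strongest and widest mark lay at 9q32 (chromosome 9, 115946934 to 115953568). It had 5335 and 5196 bp under peaks in the NRAS Q61K libraries, and 1863 and 1130 bp in the GFP libraries. Both NRAS Q61K values were above both GFP values. The strongest summit held 46 and 38 reads in NRAS Q61K and 26 and 27 in GFP, over a background of 2.71 to 3.87. At 1q23.3 (chromosome 1, 161676805 to 161679968) 3164 and 2922 bp were covered in NRAS Q61K, and 1080 and 1420 bp in GFP. The groups did not overlap there either, and summits reached 45 and 40 reads in NRAS Q61K and 27 and 23 in GFP. These were the only regions among both the 10 strongest and the 10 widest.

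Among the widest regions, 14q13.2 (chromosome 14, 36533886 to 36537239) had 3232 and 3117 bp in NRAS Q61K, and 611 and 404 bp in GFP. The region at 5q31.3 (chromosome 5, 140901661 to 140904264) had 2126 and 2193 bp in NRAS Q61K, and 2343 and 2298 bp in GFP. So 14q13.2 was several times wider in both NRAS Q61K libraries, whereas the 4 lengths at 5q31.3 lay between 2126 and 2343 bp. With peaks of a −log10 q of 10 or more, or lists of equal length, 5q31.3 was called narrower in NRAS Q61K than in GFP (log2 difference -3.64 in both, limma adjusted p = 0.0170 and 0.0165; 0.0165 to 0.973 over all alternatives). Its strongest peak had a −log10 q of 8.47 and 8.69 in NRAS Q61K and of 14.3 and 13.3 in GFP, so the −log10 q limit leaves no covered base in NRAS Q61K. A base shared by all 4 lists ran over 1756 bp at 5q31.3, the longest such stretch of the named regions. At 8q21.3 (chromosome 8, 88948122 to 88950388) the NRAS Q61K libraries had 1215 and 818 bp and the GFP libraries 1082 and 1251 bp, and the groups overlapped. The wide regions at 3q25.1 (chromosome 3, 149346674 to 149351997) and 20q11.22 (chromosome 20, 33891118 to 33892806) had no base under a peak in all 4 lists. Their widths of 5324 and 1689 bp came from peaks at different places. At 1p22.2 (chromosome 1, 90355285 to 90356677) 954 and 776 bp were covered in NRAS Q61K, and 1123 and 720 bp in GFP, with overlapping groups.

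Other strong regions were short. At 15q25.1 (chromosome 15, 78405653 to 78406287) a single peak of 534 and 370 bp in NRAS Q61K, and of 354 and 322 bp in GFP, had a −log10 q of 14.2 or more in every list. The lengths differed by more between the NRAS Q61K libraries than between their lower value and the GFP libraries. At 7p14.1 (chromosome 7, 39656911 to 39657265) the peaks were 183 and 163 bp long in NRAS Q61K, and 234 and 355 bp in GFP, with summits of 28 to 34 reads within 17 bp of each other. These 2 regions and 9q32 were the only ones with a −log10 q of 10 or more in all 4 lists. At 2p11.2 (chromosome 2, 89065621 to 89066280), where summits of the 4 lists lay within 1 bp, 464 and 297 bp were covered in NRAS Q61K, and 397 and 598 bp in GFP. The peaks of 1p31.1 (chromosome 1, 83529815 to 83530848), 4q32.3 (chromosome 4, 168609521 to 168610205) and 16q24.2 (chromosome 16, 88272672 to 88273686) were likewise among the 10 strongest. They covered 488 to 957 bp in NRAS Q61K, and 385 to 667 bp in GFP.

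**Figure D2:**
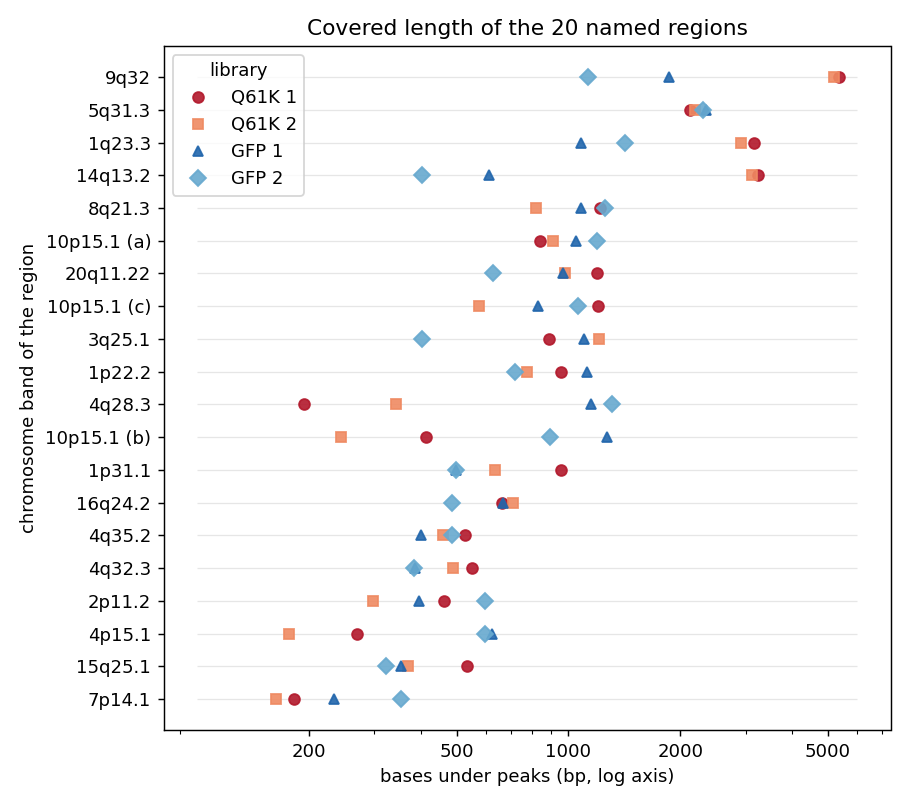
Bases under peaks (horizontal, bp, log axis) at the 20 named regions in each of the 4 transgene libraries, ordered by their mean and labelled by band; the letters a to c number the 3 regions of 10p15.1 along the chromosome. The 9q32, 14q13.2 and 1q23.3 regions have both NRAS Q61K points to the right of both GFP points, and 4q28.3, 4p15.1 and 10p15.1 b the reverse.

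A direct comparison of NRAS Q61K with GFP cells was not the contrast that chose the regions, and found few differences among them. The rule does require a peak in all 4 of these libraries. Of the 21556 regions tested, only 16966 had a peak in all 4, so the shares below are not of matched sets. On log2(bases under peaks + 200), limma with Benjamini-Hochberg adjustment over the 21556 regions with a peak in at least 2 of the 4 libraries called 2 of the 357 wider in NRAS Q61K and none narrower. That is 0.560% wider, where 0.51% of all regions tested were called wider and 0.0325% narrower, so in this fit the share of wider calls is near the background. At an unadjusted p under 0.05, 22 were wider (6.16%, against 13.8% of all regions tested) and 6 narrower (1.68%, against 6.64%), so both shares were under the background. Without a trend in the variance prior the called shares were also under it, with 0.56% of the members wider against 3.66% of all regions, and none narrower against 1.61%. With the trend, the median SE of the log2 difference was 0.294 among the members and 0.131 over all regions tested. A difference of the same size was thus less readily called among the members, and the lower shares do not show that they differed less. Both NRAS Q61K libraries lay above both GFP libraries at 85 regions (23.8%, background 23.5%) and below them at 53 (14.8%, background 24.1%). The median difference over the 357 regions was 0.10 (quartiles -0.13 to 0.33), against 0.04 over all regions tested, and the pooled replicate SD of the per-library medians was 0.07.

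The called regions were 14q13.2 and 9q32, both wider in NRAS Q61K than in GFP cells. At 14q13.2 the log2 difference was 2.32 (SE 0.17, limma adjusted p = 0.0247), with 3175 ± 81.3 bp in NRAS Q61K and 507.5 ± 146 bp in GFP cells (SD, n = 2 each). At 9q32 it was 1.77 (SE 0.20, adjusted p = 0.0499 in the same limma fit), with 5266 ± 98.3 bp in NRAS Q61K and 1497 ± 518 bp in GFP cells (SD, n = 2 each). Both calls were lost, by limma adjusted p, with a pseudocount of 50 bp, without centring of the libraries and with the replicate number as a block, and the adjusted p over all limma alternatives ranged from 8.30e-05 to 0.151 at 14q13.2 and from 2.71e-04 to 0.119 at 9q32. The 14q13.2 call was also lost with lists of equal length and with peaks over a −log10 q of 10, and the 9q32 call with a variance prior that had no trend. The 1q23.3 region, with 3043 ± 171 bp in NRAS Q61K and 1250 ± 240 bp in GFP cells (SD, n = 2 each), missed the threshold (log2 difference 1.22, SE 0.14, limma adjusted p = 0.0517). It was called in 7 of 14 alternatives (limma adjusted p from 0.00106 to 0.195 over all of them): with a pseudocount of 1000 bp, without a filter, among regions in all 4 transgene lists, in a fit of all 10 libraries, and without GFP 1, GFP 2 or NRAS Q61K 2.

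Shorter coverage in NRAS Q61K cells was not called among the 357 in this fit, and was called at single regions in some alternatives. The smallest adjusted p in that direction was at 4q28.3 (chromosome 4, 135505237 to 135507577), with 194 and 343 bp in NRAS Q61K, and 1151 and 1307 bp in GFP. Both NRAS Q61K values were far under the GFP values (log2 difference -1.58, SE 0.27, limma adjusted p = 0.0910), in a region that lies 2945 kb from any region marked in all 10 lists. It was called narrower in 5 of the 12 alternatives that tested it (limma adjusted p from 0.00804 to 0.156 over all 12): with a pseudocount of 1000 bp, without a filter, among regions in all 4 transgene lists, in a fit of all 10 libraries and without NRAS Q61K 2. The next were a region of 10p15.1 (chromosome 10, 4719358 to 4720630), with 415 and 244 bp in NRAS Q61K and 1273 and 893 bp in GFP (limma adjusted p = 0.119), and one of 4p15.1 (chromosome 4, 28403875 to 28404498), with 270 and 177 bp in NRAS Q61K and 624 and 598 bp in GFP (adjusted p = 0.159). The groups did not overlap at either region. The 10p15.1 region was called narrower in 3 of 14 alternatives: without a filter, among regions in all 4 transgene lists and in the fit of all 10 libraries. At 4p15.1 2 of 14 did so: the fit of all 10 libraries and −log10 q of 10 or more. Over all 14 the limma adjusted p ran from 0.0168 to 0.233 and from 0.0263 to 0.503. The rule sets members to 0 bp in the libraries added to that fit, and the −log10 q limit can empty 1 group. Calls in those settings are thus no independent support. Nothing in the labels says that the 2 libraries of a group came from separate cultures, so these p-values measure the spread between libraries, which may be technical. For a single region, an exact two-sided permutation test of 2 against 2 libraries cannot go below p = 0.333.

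**Figure D3:**
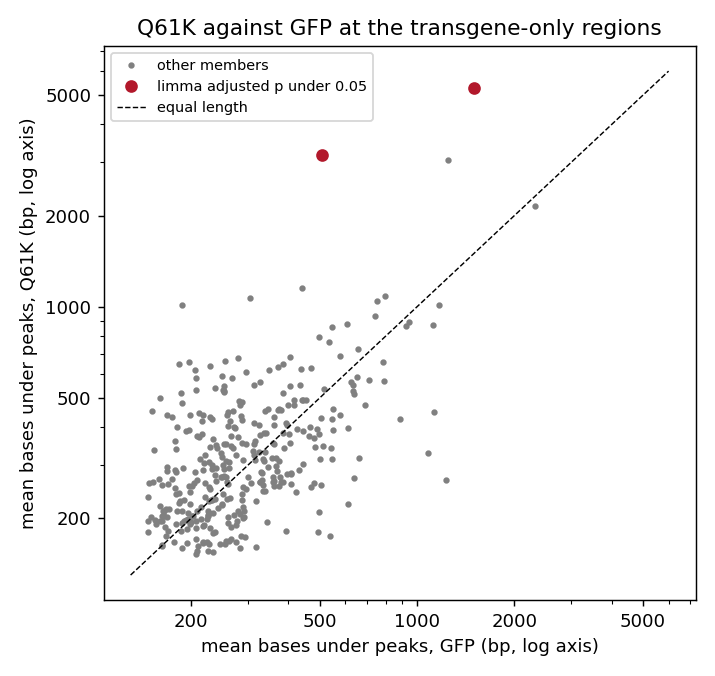
Mean bases under peaks in the 2 NRAS Q61K libraries (vertical, bp, log axis) against the mean in the 2 GFP libraries (horizontal, bp, log axis) for the 357 regions. The filled circles at 3175 and 5266 bp in NRAS Q61K are the regions called by limma, and most other points lie under 1000 bp on both axes around the line of equal length.

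The regions were spread over all 23 chromosomes analysed. Chromosome 1 held 44 (12.3%, against 10.3% of all regions), chromosome 2 held 34 (9.52% against 8.13%) and chromosome 10 held 20 (5.60% against 3.77%). Chromosome 17 held 9 (2.52% against 4.93%) and chromosome 19 held 11 (3.08% against 5.08%), which are gene-dense chromosomes. Per length the highest densities were 19.0 regions per 100 Mb on chromosome 20 and 18.6 on chromosome 19, and the lowest was 4.16 on chromosome 21. No test of these shares was made.

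Darkly stained chromosome bands, which are generally poor in genes, held a larger share of these regions than of those marked in all 10 lists, a difference that was not tested. Bands of the 2 darkest Giemsa classes held 92 of the 357 (25.8%), against 24.8% of the 1474 regions marked in all transgene and both parental lists but no drug list, 17.6% of all regions and 13.2% of the regions in all 10 lists. Unstained bands held 191 (53.5%), against 52.6%, 57.2% and 61.3% of the same sets. The shares were close to those of the set that parental cells also carried. Centromeric and variable bands held 7 regions (1.96%, against 2.37%, 1.98% and 1.00% of the same sets), a share near that of all regions.

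Most of them did not lie beside a constitutive region. The nearest region marked in all 10 lists was 55.5 kb away in the median, against 56.1 kb for the regions shared with parental cells and 48.6 kb for all regions. It lay within 10 kb of 46 regions (12.9%, against 13.6% and 18.0%) and over 100 kb from 140 (39.2%, against 33.2% and 31.3%). For 5 regions it lay over 1000 kb away. The farthest was at 16q21 (chromosome 16, 62259907 to 62260208; 3490 kb), followed by the 4q28.3 region and one at Xq21.31 (chromosome X, 88816630 to 88818585; 2188 kb), which had 1289 and 1022 bp under peaks in NRAS Q61K, and 341 and 542 bp in GFP. Both values of NRAS Q61K exceeded those of GFP at Xq21.31, without passing the threshold (limma adjusted p = 0.118). A parental peak lay within 5 kb of 41 regions (11.5%), a share not counted for other sets.

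**Figure D4:**
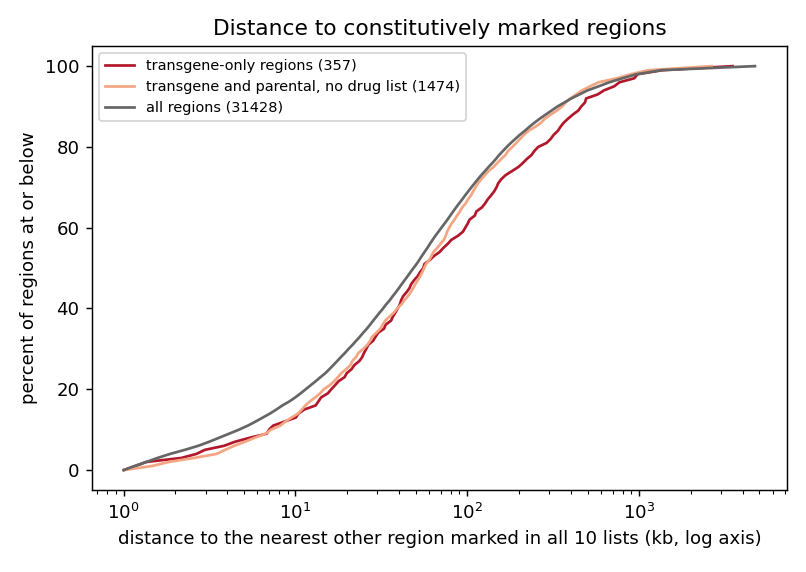
Cumulative percent of regions (vertical) by distance to the nearest other region marked in all 10 lists (horizontal, kb, log axis), for the 357 regions, the 1474 regions shared with parental cells and all 31428 regions. At 100 kb the curve of the 357 lies under the others, with 39.2% of the regions still farther away against 33.2% and 31.3%.

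The 357 regions fell in 256 bands, of which 184 held a single one, and no run of 3 or more within 100 kb was found. The band with the most was 8p23.1, with 6 of its 83 regions (7.23%, against 1.14% over all bands). That band is known for large blocks of duplicated sequence, and whether the 6 lie in them was not checked. Next came 1p31.1 and 1q44, with 5 each (of 108 and 79 regions), and 4q35.1, with 4 of 75, while 17 bands held 3. Some bands with fewer members had a larger share, such as 9q31.2 with 3 of 27 (11.1%). In all, 9 pairs lay within 100 kb of each other, a count not made for other sets. The closest was at 19q13.12 (chromosome 19, 37761889 to 37764664), where regions of 174 and 357 bp stood within 2.78 kb. At 10p15.1 a pair spanned 87.3 kb (chromosome 10, 4719358 to 4806687), and another region of that band (chromosome 10, 3988365 to 3989615) was covered over 839 and 908 bp in NRAS Q61K and 1051 and 1192 bp in GFP. On chromosome X pairs stood at Xq22.3 and Xq26.2, spanning 20.1 and 47.4 kb.

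A few of the regions lay near chromosome ends. Within 500 kb of an end lay 6 of the 357 (1.68%), against 1.35% of all regions and 1.55% of those in all 10 lists. Among the regions shared with parental cells it was 0.611%. The share is near that of all regions, and these differences were not tested. In the GRCh37 assembly the outermost stretch of most chromosomes is a placeholder of unknown bases, next to which the sequence begins with telomere repeats. Of the 357 regions, 4 lay right at that border, between 9.94 and 9.99 kb from the end. The region at the end of 1q44 (chromosome 1, 249240022 to 249240628) had 577 and 298 bp under peaks in NRAS Q61K, and 545 and 607 bp in GFP. At 7p22.3 (chromosome 7, 9945 to 10327) 219 and 352 bp were covered in NRAS Q61K, and 342 and 314 bp in GFP. All 4 libraries marked both ends, as the rule requires, and the groups overlapped at both.

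The other telomeric members lay at 15q26.3 and 18p11.32. At 15q26.3 (chromosome 15, 102520621 to 102521428) 320 and 239 bp were covered in NRAS Q61K, and 382 and 433 bp in GFP. At 18p11.32 (chromosome 18, 9994 to 10412) 186 and 343 bp were covered in NRAS Q61K, and 341 and 419 bp in GFP. The groups overlapped at 18p11.32, while at 15q26.3 both NRAS Q61K values were lower. Over all 13 regions within 11 kb of a chromosome end, members or not, 10 and 10 carried a peak in the NRAS Q61K libraries, 10 and 13 in GFP, 1 and 0 in colony, 1 and 2 in resistant and 3 and 4 in parental libraries. The rule fixes the 4 members in these counts. Over the other 9 ends, 6 and 6 carried a peak in NRAS Q61K and 6 and 9 in GFP. There, 1 and 0 did so in colony, 1 and 2 in resistant and 3 and 4 in parental libraries. These counts too depend on how the ends were collected, since an end was listed only where some library had a peak. The ends at 4p16.3, 7q36.3, 10q26.3, 19q13.43 and 21q22.3 had none in the other 6 lists and entered through transgene lists alone. Telomere repeats of different chromosomes are nearly identical, so a read of 50 bp cannot be assigned to 1 end with certainty, and the labels do not say how such reads were treated. The part of peak length and list length in this difference was not tested.

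**Figure D5:**
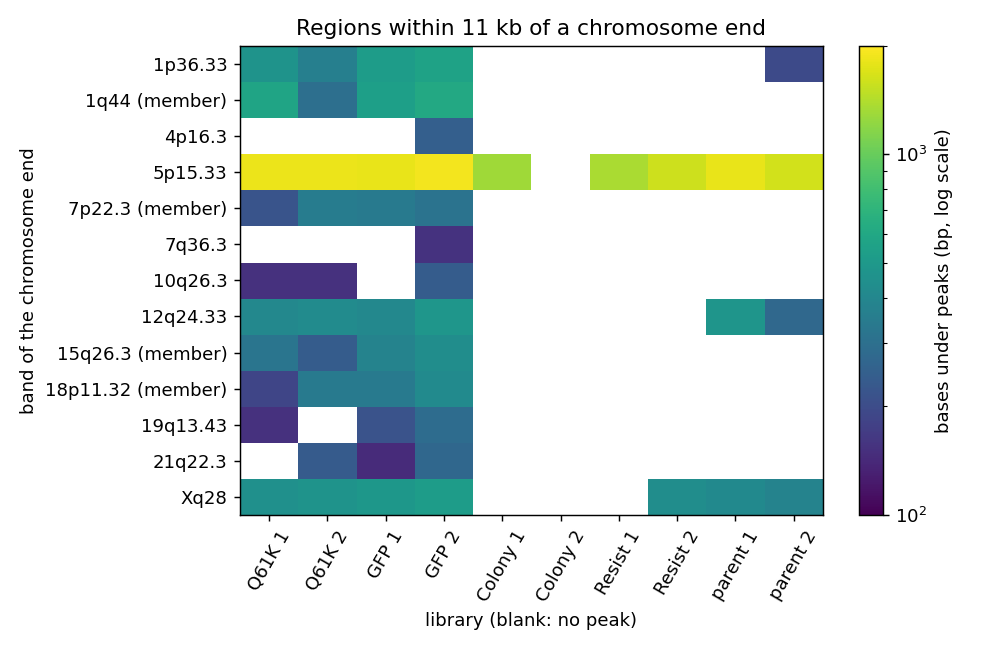
Bases under peaks (colour, bp, log scale; blank where no peak was called) at the 13 regions within 11 kb of a chromosome end, by band (rows) and library (columns). The 4 rows marked as members are filled in the transgene libraries alone because the rule chose them so. Over the other 9 rows the transgene libraries are filled at 6 to 9 ends and the other 6 libraries at 0 to 4. An end has a row only where some library had a peak.

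A further subtelomeric region stood 110 kb from the end of chromosome 4 at 4q35.2 (chromosome 4, 191043777 to 191044308), in an end of the chromosome that shares duplicated sequence with the end of 10q. It had 528 and 459 bp under peaks in NRAS Q61K, and 402 and 485 bp in GFP. Its summits of 53 and 51 reads in NRAS Q61K and 53 and 67 reads in GFP were the highest of the 20 named regions in each library. The local background there was also high, at 20.8 and 18.1 reads in NRAS Q61K and 14.2 and 12.5 in GFP, so the fold over background was only 2.48 and 2.72 in NRAS Q61K and 3.55 and 5.05 in GFP.

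Many of the peaks were shorter than any peak of the drug lists. In 91 regions (25.5%) the longest transgene peak was shorter than the shortest peak of colony 1, and in 92 than that of colony 2. The corresponding counts were 58 and 60 for the resistant lists and 6 and 2 for the parental lists. Short peaks were not particular to these regions. Of all peaks, 35.7% and 34.3% in NRAS Q61K and 38.7% and 40.3% in GFP were under the shortest peak of colony 1. Those shares count single peaks, not the longest peak of a region. How far peak length set the choice of the regions was not tested. When every list was reduced to its 19111 strongest peaks, 226 of the 357 had no peak left in any transgene list and 4 kept one in all 4.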

How the data were processed

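The analysis used the H3K4me3 peak lists of 10 libraries, and the 10 input samples were not used here. Per the submitters' processing notes, the tools were MACS2 2.1.2, deepTools 2.5.4, SAMtools and BWA. Those notes list hg19 and GRCh37 as builds, and give neither roles nor settings. The authors deposited 1 list per library with peak start, end and summit in bases, a score (10 times −log10 q), the fold (a ratio of summit over local background) and the −log10 p-value and −log10 q-value. These are the authors' values and only described or filtered peaks within a list. Peaks were called per library. Of 306884 peaks, 589 lay outside the 22 autosomes and X and were left out. The lists hold no read counts. The summit pileup was solved from fold and p under a Poisson model with 1 added to pileup and background. All peaks with −log10 p under 25 gave whole numbers within 0.0005 in −log10 p.

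Regions were merged within 1000 bp. Covered length was tested as log2(bases + 200) with limma 3.58.1 in R 4.3.3, using the 4 transgene libraries, eBayes with a trend, Benjamini-Hochberg adjustment and a threshold of 0.05. Libraries were centred by their median over the regions that all 10 lists mark. The other 6 libraries stayed out of the fit because the rule sets the members to 0 bp there. The fit was tested on simulated data, with changes placed only in regions covered over more bases in GFP 1 than most members. That test thus does not cover the lengths of most members. Bands came from the hg19 table in circlize 0.4.16. Other steps used Python 3.11.15, pandas 2.3.3, numpy 2.4.6, scipy 1.17.1 and matplotlib 3.10.9.

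Named regions are the 10 strongest, the 10 widest, those called by limma (or the 3 with the smallest adjusted p in a direction without calls), the 5 bands with the most members and runs of 3 or more within 100 kb. Others named (chromosome ends, 16q21, Xq21.31, the closest pairs) were chosen after their values were seen. The members and all lists were chosen with earlier results of these data known. The replicate numbers do not mark a shared batch in the labels, so the block is an alternative. Genes and sequences are not reported, as no annotation or genome of GRCh37 was used here.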

Additional observations from a re-analysis of the deposited data

How the results depend on the processing

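The number of regions was 537 with merging of overlapping peaks only, 182 when every list kept its peaks at or over a −log10 q of 10, 3 with that threshold in the transgene lists alone, 47 with lists of equal length and 149 with at least 200 bp of peak, against 357 as reported. Leaving out 1 library gave 361 to 771, with 573 without GFP 1, 545 without NRAS Q61K 2 and 771 without parental 1. The number wider in NRAS Q61K than GFP was 0 with a pseudocount of 50 bp, 0 without centring, 0 with the replicate number as a block, 6 without a filter (1.68%, against 1.93% of all regions tested), 6 among regions in all 4 transgene lists (1.68% against 2.1%) and 12 in a fit of all 10 libraries (3.36% against 5.61%). It was 3 with a pseudocount of 1000 bp (0.84% against 2.25%). With −log10 q of 10 or more it was 3 of only 54 members tested (5.56% against 2.19%), and with lists of equal length 2 of 60 (3.33% against 1.66%). Fits without 1 library leave a group without a spread of its own, so their counts are not set beside these. The number narrower was 1 with a pseudocount of 1000 bp (0.28% against 0.278%) and 2 without a filter (0.56% against 0.324%). It was 2 among regions in all 4 lists (0.56% against 0.389%) and 4 in the fit of all 10 libraries (1.12% against 2.41%). With −log10 q of 10 or more 2 of only 54 members tested were narrower (3.7% against 0.197%), and with lists of equal length 1 of 60 (1.67% against 0.168%). Either cut lets a member enter the fit through peaks left in 1 group alone, as 5q31.3 did through GFP with the −log10 q limit. Such a call follows from the cut, so these shares, wider or narrower, are no result about the members. A group left with 1 library was assumed to vary like the other. In the fit of all 10 libraries the members have no spread in the other 6, by construction, and over all regions that fit called 1210 wider and 519 narrower. Over all regions the main fit called 110 wider and 7 narrower, while a pseudocount of 50 bp, no centring and the block each called 0 and 0. Without the trend the calls over all regions were 790 and 347, and those among the members 2 and 0. For the other differences the cause was not tested. The median log2 difference (0.10) moved by less than the replicate SD (0.07) under each alternative run, with values from 0.05 to 0.14.

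Among named regions without a call in the reported fit, the sign of the log2 difference turned with −log10 q of 10 or more at 2p11.2 (0.51), 4q35.2 (-1.66), 16q24.2 (-0.83) and 10p15.1 a (0.71), with lists of equal length at 2p11.2 (0.51), 4q35.2 (-1.66) and 16q24.2 (-0.82), and with a pseudocount of 1000 bp at 1p22.2 (0.0011). Without 1 library it ranged from -0.26 to 0.24 at 1p22.2, -0.44 to 0.0039 at 2p11.2, -0.017 to 1.07 at 3q25.1, -0.47 to 0.30 at 10p15.1 c, -0.11 to 0.015 at 5q31.3 (-3.64, and called, with −log10 q of 10 or more and with lists of equal length) and -0.33 to 0.058 at 8q21.3. For numbers 1 and 2 the replicate differences in NRAS Q61K and in GFP correlated with r = 0.0282 over 21556 regions. The member peaks had summits of 10 to 82 reads, and whether this depth limits the calls was not tested.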
